A study of Mus musculus with 6 samples.

Results

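Lysosomes are acidified by the vacuolar H+-ATPase (V-ATPase), a rotary pump in which the cytosolic V1 sector hydrolyses ATP and the membrane-bound V0 sector moves protons into the lumen. The acid activates the cathepsins, proteases that are made as inactive precursors, while the LAMP glycoproteins line the lysosomal membrane and the Ragulator complex (Lamtor genes) anchors the Rag GTPases that recruit the growth regulator mTORC1 to the lysosome. Many lysosomal genes are known targets of the TFEB family of transcription factors, which bind the palindrome TCACGTGA, an extended form of the E-box CACGTG. Cathepsins are also secreted and can cut matrix proteins.

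The genes described here were all rows of the count table whose symbol begins with Atp6v or marks an Atp6ap, cathepsin (Cts and 1 further character), Lamp or Lamtor gene, with a mean raw count of at least 20 over the 6 libraries. Of 18512 entries in the table, 46 had such a symbol and 40 reached the minimum. They comprised 9 genes of the V1 sector, 8 of the V0 sector, 2 V-ATPase accessory genes, 11 cysteine cathepsins, 2 aspartic cathepsins, 1 serine cathepsin, 2 Lamp genes and 5 Lamtor genes. All 40 were among the 13353 genes tested. The 6 symbols below the minimum were Atp6v0c, Atp6v1b1, Atp6v1c2, Atp6ap1l, Ctsg and Lamp3. Atp6v0c encodes the c subunit of the proton-carrying ring, yet had only 8 and 4 raw counts in DMSO, 12 and 4 in TGF-β and 10 and 16 in TGF-β+2APB. How reads that also match other loci were counted is not given in the sources used here, so this low number cannot be read as a low transcript level.

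RNA-seq was performed on NMuMG cells, an established mouse mammary gland epithelial line, in 3 groups of 2 libraries. The first group received DMSO, the solvent, and the second received TGF-β, a cytokine that induces epithelial-mesenchymal transition, at 5 ng/ml. The third received TGF-β at 5 ng/ml together with 50 uM 2APB (2-aminoethoxydiphenyl borate), a modulator of store-operated calcium entry. No library with 2APB alone was analysed here, so that the effect of 2APB was measured only in the presence of TGF-β. The cells were serum-starved before treatment, the methods call the 2 libraries of a group biological replicates, and the sources differ on the order of the 2APB and TGF-β additions.

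The libraries held between 71840570 and 79473182 counts, of which the 40 genes took 0.575% to 0.742%. The epithelial keratin genes Krt8 and Krt18 were abundant in every library, at 161005 or more normalized counts, and higher in all 4 treated libraries than in DMSO. The other measured epithelial markers were lower in the treated libraries or low throughout. Cdh1 had 91179.8 and 90601 in DMSO, 58611 and 47241 in TGF-β and 35058 and 41059.8 in TGF-β+2APB, and Krt19 had 45112 and 42138 in DMSO, 12509.5 and 8776 in TGF-β and 1687 and 3441 in TGF-β+2APB. Epcam had 50.6 to 163 and Cldn7 at most 5.9. The library TGF-β+2APB replicate 2 stood apart from the rest in macrophage genes. It was the highest of the 6 libraries for 6 of the 7 measured macrophage markers, the exception being Cd14, and the summed normalized count of those 6 was 3705 there against 137.0 to 711 in the other libraries. The calls that changed when this library was left out are listed below.

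Short stretches of promoter sequence are shown first, because the palindrome is the known binding sequence of the TFEB family. RefSeq windows of 300 bases (250 before and 50 after an annotated start site, build GRCm38.p6) were found for 29 of the 40 genes. Those without one were Atp6v0a2, Atp6v0d2, Atp6v1b2, Atp6v1c1, Atp6v1g1, Atp6v1h, Ctsb, Ctse, Ctsh, Ctsw and Lamtor3. The palindrome TCACGTGA lay in the windows of 5 of the 29 genes, or 17.2%, against 1.12% of all 27025 genes with a window, 1.77% of the genes of the count table with one and 10.8% of 102 other lysosomal genes. Each is printed below as 30 bases, 5′ to 3′ on the gene's strand, with the palindrome in capitals. Ctsa held 2 copies, of which the upstream one is shown.
Atp6v1a, chr16:44139373-44139402, minus strand: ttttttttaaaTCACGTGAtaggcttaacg
Atp6v0d1, chr8:105566050-105566079, minus strand: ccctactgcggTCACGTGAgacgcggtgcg
Atp6v0e, chr17:26676387-26676416, plus strand: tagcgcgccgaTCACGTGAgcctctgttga
Ctsa, chr2:164833749-164833778, plus strand: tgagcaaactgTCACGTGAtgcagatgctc
Ctsd, chr7:142387908-142387937, minus strand: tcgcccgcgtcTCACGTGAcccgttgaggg

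The shorter E-box CACGTG, which is contained in TCACGTGA and likewise reads the same on both strands, was present in the windows of 11 of the 29 genes (37.9%). It occurred in 8.09% of all genes with a window, in 10.4% of those in the count table and in 23.5% of 102 other lysosomal genes. Besides the 5 genes above, the holders were Atp6v0b, Ctsf, Ctsl, Lamp1, Lamtor1 and Lamtor4. Of the promoters with repeated copies, 3 are printed here, with each CACGTG in capitals. Lamp1 had 4 copies within 75 bases, and Atp6v0b and Lamtor4 had 2 copies each within 50 bases.
Lamp1, chr8:13159086-13159160, plus strand: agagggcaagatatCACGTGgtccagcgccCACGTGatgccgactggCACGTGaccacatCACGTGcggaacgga
Atp6v0b, chr4:117887330-117887379, minus strand: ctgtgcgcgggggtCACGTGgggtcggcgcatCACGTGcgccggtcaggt
Lamtor4, chr5:138255352-138255401, plus strand: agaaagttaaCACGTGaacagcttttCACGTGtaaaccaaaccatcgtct
The Ctsl window was drawn around a RefSeq start site 214 bases from the nearest GENCODE transcript start of the gene. It lay wholly within the gene span given below and is not shown. The windows that held the palindrome in Atp6v1a, Atp6v0e and Ctsa also lay wholly within their gene spans. Their start sites were 46, 16 and 34 bases from a GENCODE transcript start. The Atp6v0e span begins at 26663231 and its window at 26676146. Ctsa also had a window at the start of its gene span, which held neither motif.

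**Figure D1:**
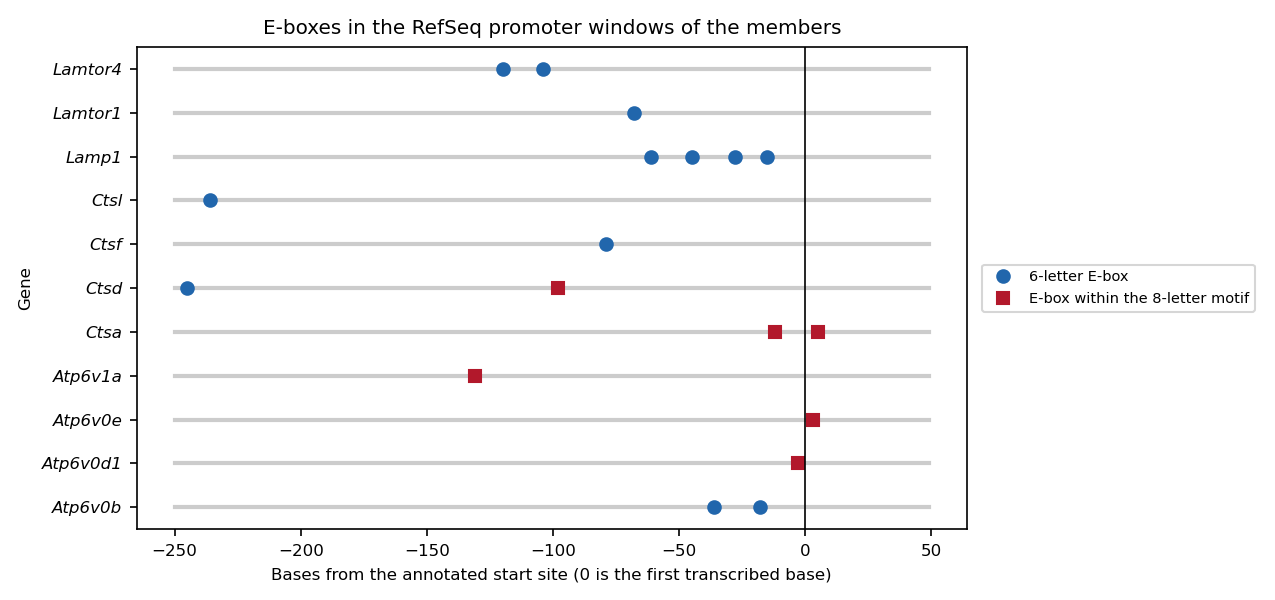
Position of each CACGTG in the promoter windows of the 11 genes that held one, in bases from the annotated start site (horizontal axis, 0 is the first transcribed base), with red squares where it was part of TCACGTGA and blue circles where it was not. Lamp1 carried 4 copies, all within 61 bases upstream of its start site, while the Ctsl copy lay 236 bases and the farther Ctsd copy 245 bases upstream.

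TGF-β was compared with DMSO to see how the lysosomal genes stood in cells undergoing the transition. Of the 40 genes, 7 were higher and 16 were lower in TGF-β at a false discovery rate of 0.05 (edgeR quasi-likelihood test, Benjamini-Hochberg adjusted over all 13353 genes), and 17 did not pass. Across all genes tested 41.5% were called, 21.8% higher and 19.7% lower, against 57.5%, 17.5% and 40% of the 40. Their median log2 fold change was -0.25, beside -0.010 for all genes. Of 19 V-ATPase genes 3 were higher and 9 lower, with a median log2 fold change of -0.39, whereas 4 of 14 cathepsins were higher and 4 lower, with a median of 0.099. None of the 5 Lamtor genes was called higher and 3 were called lower.

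TGF-β+2APB was set against DMSO in the same way. In this comparison, which shares the DMSO libraries with the first, 8 of the 40 genes were higher and 13 lower. The share called was 52.5%, next to 52.8% of all genes (25.6% higher and 27.2% lower), and the median log2 fold change of the 40 was -0.074, beside -0.0033 for all genes. Setting TGF-β+2APB directly against TGF-β asked what 2APB added, and is called the direct comparison here. Here 4 genes were higher and 3 lower, 17.5% of the 40 and 17.5% of all genes (6.58% higher and 10.9% lower). In both of these comparisons the share of the 40 that was called was thus near that of all genes. Groups of 2 libraries without overlap were the more frequent case in each comparison. They were found for 9683 of 13353 genes in TGF-β against DMSO, 11488 in TGF-β+2APB against DMSO and 7746 in the direct comparison. Of the 40 genes, 32, 32 and 23 had such groups, so the separation described for single genes below does not set them apart. With all libraries, 13 of the 40 genes were called in no comparison, and the matching share of all genes is not given here.

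Single libraries weighed on the counts of called genes. In the fits named below, the number called over all genes rose or fell together with that of the 40. How many of the calls over all genes held in these fits is not given here. The numbers of held calls below therefore do not set the 40 apart. Without DMSO replicate 1, the share of the 40 called in TGF-β against DMSO was not above that of all genes. Without TGF-β+2APB replicate 2, the calls numbered 16 in TGF-β, 11 in TGF-β+2APB and 6 in the direct comparison. Of the calls made with all libraries, 16, 10 and 5 held without it, those of the direct comparison being Atp6v0a1, Atp6v1g1, Ctse, Ctsl and Ctso. The 11 calls lost in TGF-β+2APB against DMSO were those of Ctsc (adjusted p = 0.0811 without the library), Ctsa (0.0815), Atp6v1a (0.0898), Ctsk (0.0898), Lamtor2 (0.107), Lamp1 (0.108), Atp6v1d (0.117), Atp6ap1 (0.128), Atp6v0e (0.129), Atp6v1b2 (0.131) and Atp6ap2 (0.172). The calls lost in the direct comparison were those of Ctsc (0.0548) and Atp6v1e1 (0.186), while Ctsh came to be called there and Ctss against DMSO. In TGF-β against DMSO the library serves only the scaling and the estimate of the spread. There the calls of Atp6v0a1, Atp6v0a2, Atp6v0e, Atp6v1b2, Atp6v1f, Lamtor2 and Lamtor4 were lost. The fold changes moved as well, that of Atp6v0a1 from log2 -0.434 to -0.408. The count for TGF-β against DMSO was 8 without DMSO replicate 1, 10 without DMSO replicate 2 and 15 without TGF-β+2APB replicate 1. TGF-β+2APB against DMSO gave 10 calls without either DMSO library. In the direct comparison, where the DMSO libraries serve only the scaling and the estimate of the spread, there were fewer calls without either of them. Without either TGF-β library there were more. Calls that held in each of 15 alternative settings numbered 8 in TGF-β against DMSO (Atp6ap2, Atp6v0a4, Atp6v1h, Ctsc, Ctse, Ctsl, Ctsw and Lamtor3), 10 in TGF-β+2APB against DMSO, the same genes that held without TGF-β+2APB replicate 2 (Atp6v0a1, Atp6v0a4, Atp6v1g1, Atp6v1h, Ctse, Ctsh, Ctsl, Ctso, Ctsw and Lamtor3) and 3 in the direct comparison (Ctse, Ctsl and Ctso).

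**Figure D2:**
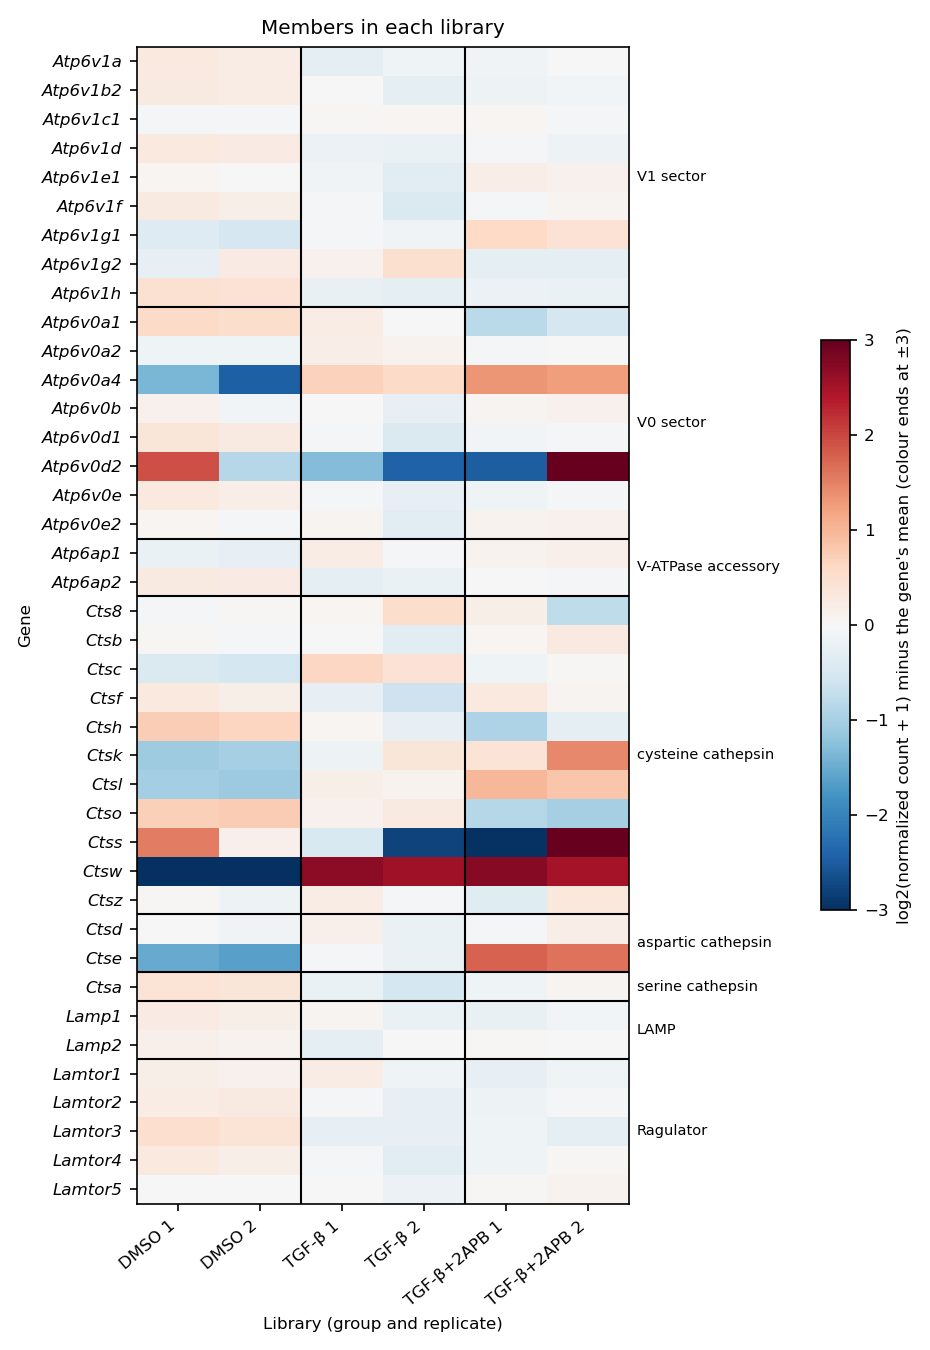
The 40 genes (rows, grouped by role) in the 6 libraries (columns), as log2(normalized count + 1) minus the gene's mean over the libraries, with red above and blue below the mean and colours that end at ±3. Ctsw, Ctse and Ctsl were below their means in both DMSO libraries, while Ctss and Atp6v0d2 were dark red in TGF-β+2APB replicate 2 and not in replicate 1.

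**Figure D3:**
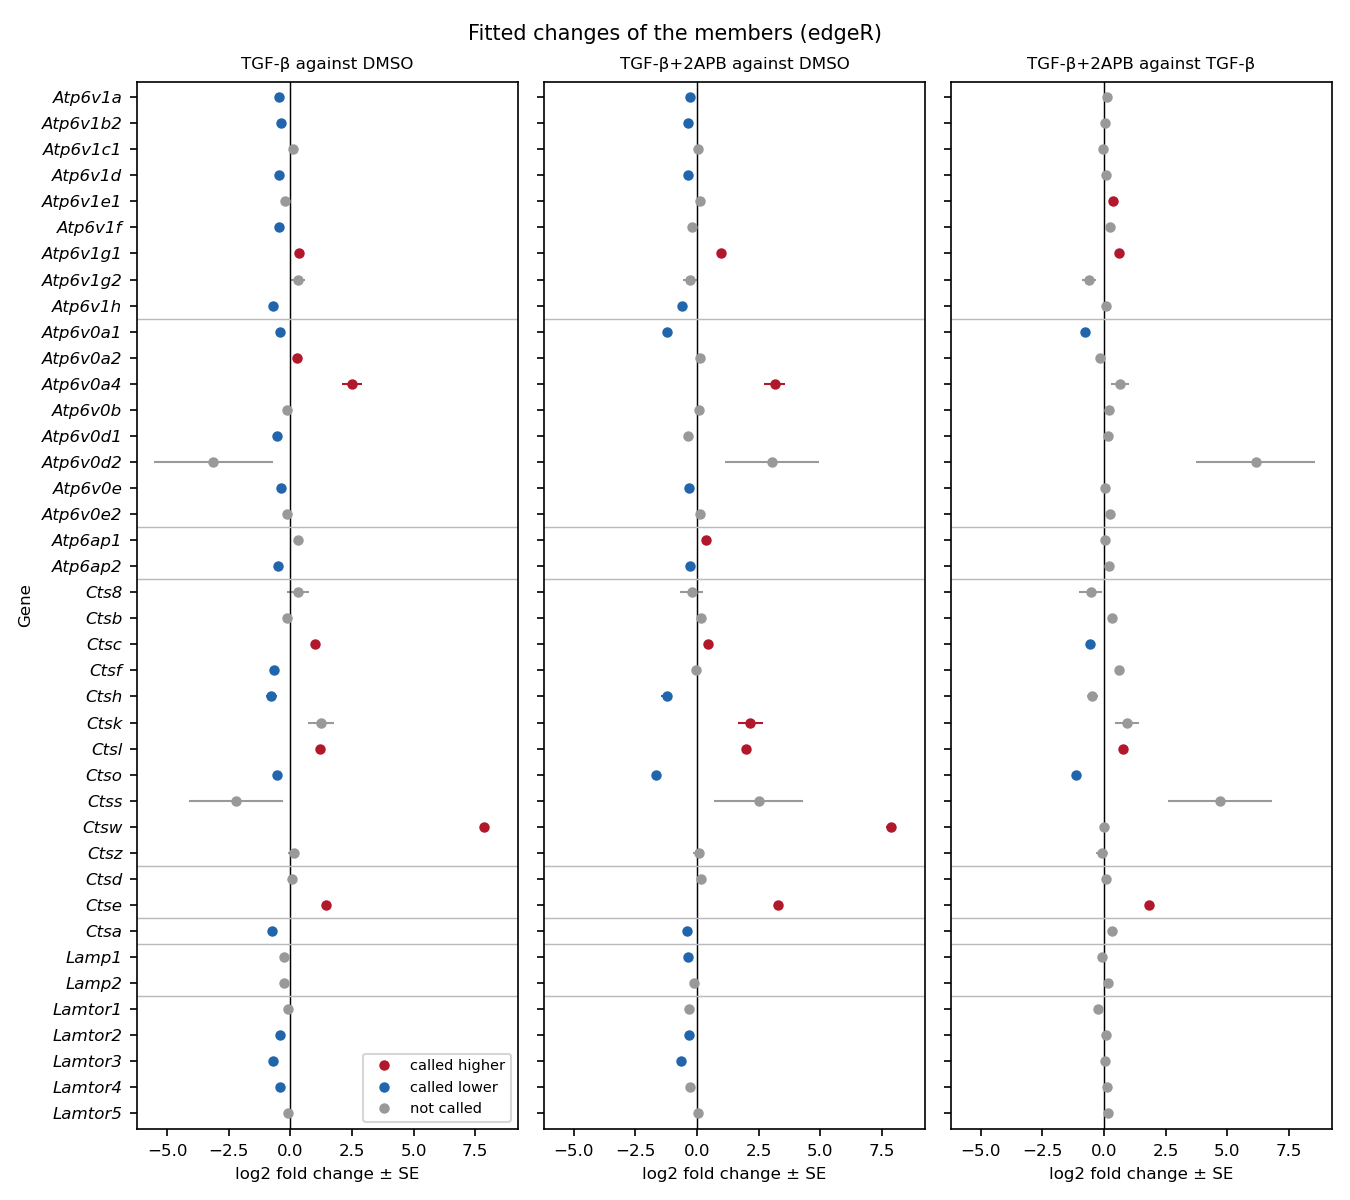
Fitted log2 fold changes with their standard errors (horizontal axes, 1 panel per comparison) for the 40 genes, red where called higher, blue where called lower and grey where not called. Ctsw had the highest value in both comparisons with DMSO (7.87), Ctse the highest called value in the direct comparison (1.83), and the bars of Ctss and Atp6v0d2 were the widest.

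The cathepsins held the largest changes. Ctsw encodes a cysteine cathepsin known from cytotoxic T and natural killer cells (chr19:5465043-5468507, minus strand, as are all gene positions here from GENCODE vM21 on GRCm38). Its normalized counts, raw counts scaled to the average library with edgeR's TMM factors, were 37.3 and 26.9 in DMSO, 7924 and 7201 in TGF-β and 8184 and 6904 in TGF-β+2APB. The DMSO libraries lay far below all 4 treated libraries, while the 2 treated groups overlapped. The log2 fold change, given throughout with the standard error of the fit and with 2 libraries per group, was 7.87 ± 0.19 in TGF-β (edgeR quasi-likelihood, adjusted p = 2.29e-05) and 7.87 ± 0.19 in TGF-β+2APB (adjusted p = 1.23e-05). The direct comparison gave -0.0036 ± 0.13 (adjusted p = 0.99). Markers of T and natural killer cells were at or near 0 in all libraries, their 8 genes summing to 9.7 to 39.5 normalized counts, with Cd3e and Prf1 at 0 in the DMSO and TGF-β libraries. Only 9 exonic bases of Ctsw overlap another gene of the table, Fibp on the opposite strand, which had 5018 to 6230 raw counts across the libraries.

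Ctse, an aspartic cathepsin found mostly in endosomes (chr1:131638306-131675505, plus strand), rose in steps. Its normalized counts were 4511 and 4200.2 in DMSO, 12519 and 11198 in TGF-β and 44027 and 40217 in TGF-β+2APB. All 3 groups were separated, with TGF-β between the other two. Ctse was 2.72-fold higher in TGF-β than in DMSO (log2 1.44 ± 0.093, edgeR adjusted p = 0.000233). In TGF-β+2APB it was 9.67-fold higher than in DMSO (log2 3.27 ± 0.1, adjusted p = 1.86e-05) and 3.55-fold higher than in TGF-β (log2 1.83 ± 0.094, adjusted p = 0.00234). The related Ctsd, the major lysosomal aspartic protease and the one of the pair with the higher level per kilobase of transcript (29000 normalized counts per kb over the 6 libraries), had 60386 and 56756 in DMSO, 68689 and 53564 in TGF-β and 59624 and 70623 in TGF-β+2APB. The 3 groups of Ctsd overlapped, and no comparison passed (log2 0.062 ± 0.14, 0.15 ± 0.14 and 0.091 ± 0.14 in the order above).

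Ctsl, a cysteine endopeptidase that is also secreted (chr13:64359337-64370890, minus strand), rose in the same order. It had 40505 and 38455 in DMSO, 92777 and 89133 in TGF-β and 164286 and 147382 in TGF-β+2APB. Again the 3 groups did not overlap, and TGF-β+2APB was highest. Ctsl changed by log2 1.20 ± 0.079 in TGF-β (edgeR adjusted p = 0.000245), 1.98 ± 0.081 in TGF-β+2APB (adjusted p = 3.94e-05) and 0.78 ± 0.079 between them (adjusted p = 0.00501). Per kilobase of its longest coding transcript, 6168 bases, the mean Ctsl level was 6400 normalized counts in DMSO, 14700 in TGF-β and 25300 in TGF-β+2APB, and per kilobase of its shortest, 1971 bases, it was 20000, 46100 and 79100. The Ctsd levels were 27500, 28700 and 30600 with the longest transcript and 30500, 31800 and 33900 with the shortest. The order of Ctsl and Ctsd in the treated groups thus depended on the transcript chosen.

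The make-up of cathepsin counts, taken without regard to transcript length, differed between the groups. Ctsl made up 23.6% and 23.7% of all cathepsin counts in the DMSO libraries, 38.1% and 42.1% in TGF-β and 49.4% and 44% in TGF-β+2APB. Ctse went from 2.63% and 2.59% of them to 5.15% and 5.29% and then 13.2% and 12%. Ctsd made up 35.2% and 35%, 28.2% and 25.3%, and 17.9% and 21.1% in the same order. As a share of the whole library, cathepsin counts were 0.228% and 0.218% in DMSO, 0.314% and 0.281% in TGF-β and 0.422% and 0.431% in TGF-β+2APB, with no overlap between groups. V-ATPase counts took 0.228% and 0.222% in DMSO, 0.195% and 0.177% in TGF-β and 0.184% and 0.191% in TGF-β+2APB, where the 2 treated groups overlapped. These shares are descriptions and were not tested.

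**Figure D4:**
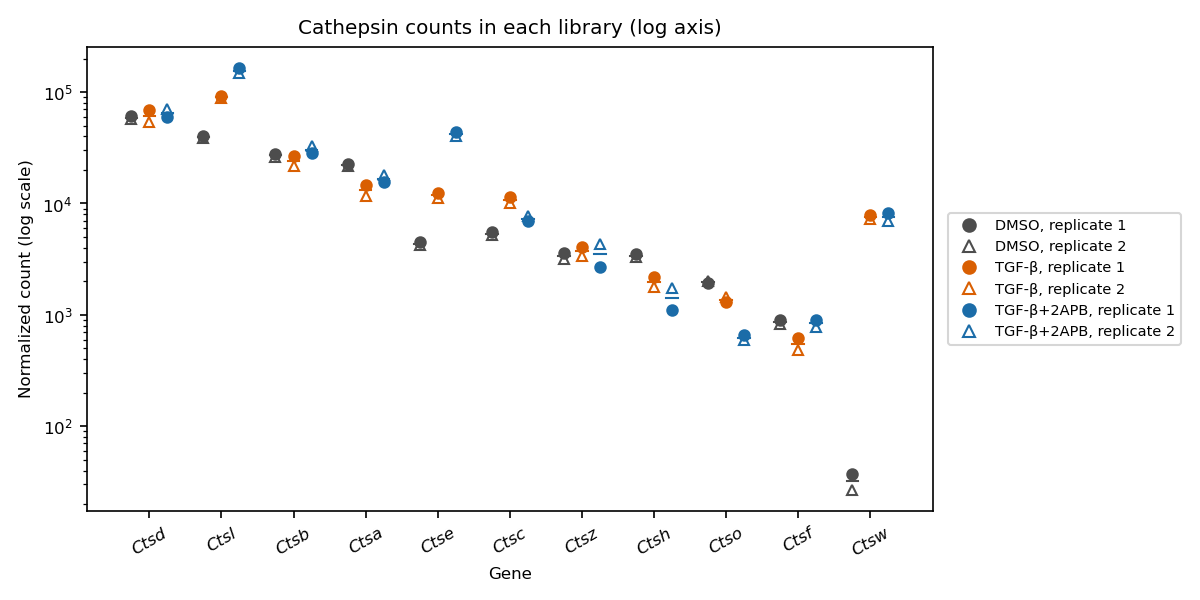
Normalized counts (vertical log axis) of 11 cathepsin genes in each library, with filled circles for replicate 1, open triangles for replicate 2 and a short line at the mean of the 2 libraries of a group. Ctsl and Ctse climbed from DMSO through TGF-β to TGF-β+2APB, Ctso went the other way, and Ctsw was at 37.3 and 26.9 in DMSO and at 6904 or more in the treated libraries.

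Ctsc encodes dipeptidyl peptidase I, which activates granule serine proteases (chr7:88278085-88310888, plus strand). Its normalized counts were 5533 and 5177 in DMSO, 11502 and 10204 in TGF-β and 6908 and 7708 in TGF-β+2APB. TGF-β stood highest, TGF-β+2APB lay between it and DMSO, and the groups did not overlap. The log2 fold change was 1.02 ± 0.1 in TGF-β (edgeR adjusted p = 0.000927) and 0.45 ± 0.099 in TGF-β+2APB (adjusted p = 0.012). In the direct comparison it fell, with a log2 fold change of -0.57 ± 0.099 (adjusted p = 0.0176). Both calls that involve TGF-β+2APB were lost without its replicate 2, at 0.39 against DMSO (adjusted p = 0.0811) and -0.66 in the direct comparison (adjusted p = 0.0548).

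Ctso and Ctsh were lower. Ctso (chr3:81932601-81956725, plus strand), a widely expressed cysteine cathepsin, had 1948 and 2025 in DMSO, 1295 and 1442 in TGF-β and 657 and 594 in TGF-β+2APB. Its groups were separated in the reverse order to Ctsl. Fitted values were log2 -0.54 ± 0.099 in TGF-β (edgeR adjusted p = 0.00809), -1.67 ± 0.1 in TGF-β+2APB (adjusted p = 0.000114) and -1.13 ± 0.1 in the direct comparison (adjusted p = 0.00409). Ctsh, an aminopeptidase (chr9:90054152-90076089, plus strand), had 3504 and 3279 in DMSO, 2186 and 1778 in TGF-β and 1107 and 1756 in TGF-β+2APB. It was lower in both treated groups than in DMSO, with log2 fold changes of -0.78 ± 0.23 (edgeR adjusted p = 0.0395) and -1.24 ± 0.23 (adjusted p = 0.00601). The direct comparison, -0.47 ± 0.23, did not pass (adjusted p = 0.213). Without TGF-β+2APB replicate 2 it was -0.84 and passed (adjusted p = 0.0491), and the value of TGF-β+2APB against DMSO was -1.59 (adjusted p = 0.00201).

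Ctsa, the serine carboxypeptidase that protects the lysosomal sialidase Neu1 (chr2:164832873-164841032, plus strand), carries the palindrome shown above. Its normalized counts were 22531 and 21675 in DMSO, 14652 and 11766 in TGF-β and 15567 and 17952 in TGF-β+2APB. Both DMSO libraries were above the 4 treated ones. Ctsa was lower, with a log2 fold change of -0.74 ± 0.13 in TGF-β (edgeR adjusted p = 0.00662) and of -0.40 ± 0.13 in TGF-β+2APB (adjusted p = 0.0436). Ctsf was called lower in TGF-β (log2 -0.65 ± 0.16, adjusted p = 0.0229) but its value in TGF-β+2APB was -0.039 ± 0.16 (adjusted p = 0.853). Ctsb, an abundant lysosomal endopeptidase with 21667 to 32692 normalized counts, and the carboxypeptidase Ctsz, with 2710.4 to 4345, were called in no comparison.

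Ctsk, Ctss and Cts8 were the cathepsins with few counts in most libraries. Ctsk, the collagen-cutting cathepsin of osteoclasts (chr3:95499256-95509362, plus strand), had 7.9 and 8.3 in DMSO, 15.6 and 22.8 in TGF-β and 23.8 and 49.3 in TGF-β+2APB. It passed in TGF-β+2APB against DMSO (log2 2.16 ± 0.52, edgeR adjusted p = 0.0164) and not in TGF-β (log2 1.24 ± 0.53, adjusted p = 0.115). Without TGF-β+2APB replicate 2 its log2 fold change against DMSO was 1.57 (adjusted p = 0.0898). Of the 5 measured osteoclast markers, 3 were highest in TGF-β+2APB replicate 2. Among them Acp5, an osteoclast enzyme also made by macrophages, had 21.6 and 10.3 in DMSO, 1.9 and 2.1 in TGF-β and 2.0 and 229 in TGF-β+2APB. The other markers were not highest there. Nfatc1, the most abundant, had 4497 and 4744 in DMSO, 5811 and 5331 in TGF-β and 7450 and 7115 in TGF-β+2APB, and Oscar had at most 5.9. The part of these transcripts in the Ctsk value was not tested. Cts8, a cathepsin known from placenta, had 13.8 to 35.3 normalized counts and was not called. Of its exonic bases, 51.5% are also annotated to another gene model on the same strand, so that its counts are uncertain. The same holds in part for Ctsd, which shares 34.4% of its exonic bases with a model on the same strand, and for Ctsl, which shares 6.09% with one on the same strand and 26.8% with one on the opposite strand. None of these models is an entry of the count table used here.

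Ctss, the cathepsin of antigen-presenting cells, and Atp6v0d2, a V0 subunit known from osteoclasts and macrophages, were singled out after their values were seen, because 1 library decided them. Ctss (chr3:95526786-95556403, plus strand) had 472 and 179.7 in DMSO, 117 and 22.8 in TGF-β and 19.8 and 3662 in TGF-β+2APB. Atp6v0d2 (chr4:19876841-19922605, minus strand) had 62.9 and 8.3 in DMSO, 5.8 and 2.1 in TGF-β and 2.0 and 582 in TGF-β+2APB. Each was far higher in TGF-β+2APB replicate 2 than anywhere else, and next highest in DMSO replicate 1. The fitted log2 fold changes in TGF-β+2APB against DMSO were 2.50 ± 1.8 and 3.03 ± 1.9, and neither passed (edgeR adjusted p = 0.295 and 0.243). Without TGF-β+2APB replicate 2 the Ctss value turned to -4.01 (adjusted p = 0.0487) and the Atp6v0d2 value to -4.07 (adjusted p = 0.12). In the direct comparison Ctss went from 4.71 ± 2.1 to -1.83 and Atp6v0d2 from 6.15 ± 2.4 to -0.98 when that library was left out, with adjusted p = 0.437 and 0.835 without it.

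Most macrophage markers were, like these 2 genes, highest in TGF-β+2APB replicate 2. Itgam had 226 and 184 in DMSO, 48.7 and 14.5 in TGF-β and 11.9 and 1004 in TGF-β+2APB. Csf1r had 151 and 82.6 in DMSO, 68.2 and 43.6 in TGF-β and 168 and 969 in TGF-β+2APB. Tyrobp had 64.9 and 31.0 in DMSO, 7.8 and 4.2 in TGF-β and 11.9 and 616 in TGF-β+2APB. Emr1, Fcgr1 and Ptprc were also highest there. Csf1r differed from Ctss and Atp6v0d2 in being next highest in TGF-β+2APB replicate 1. Cd14, the most abundant of these markers, had 16793 and 15572 in DMSO, 12548 and 9099.6 in TGF-β and 3409 and 5455 in TGF-β+2APB, so that TGF-β+2APB replicate 2 was below all DMSO and TGF-β libraries. The part of these cells or transcripts in the Ctss and Atp6v0d2 values was not tested, and fewer cells of a type and less RNA per cell cannot be told apart in bulk samples.

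**Figure D5:**
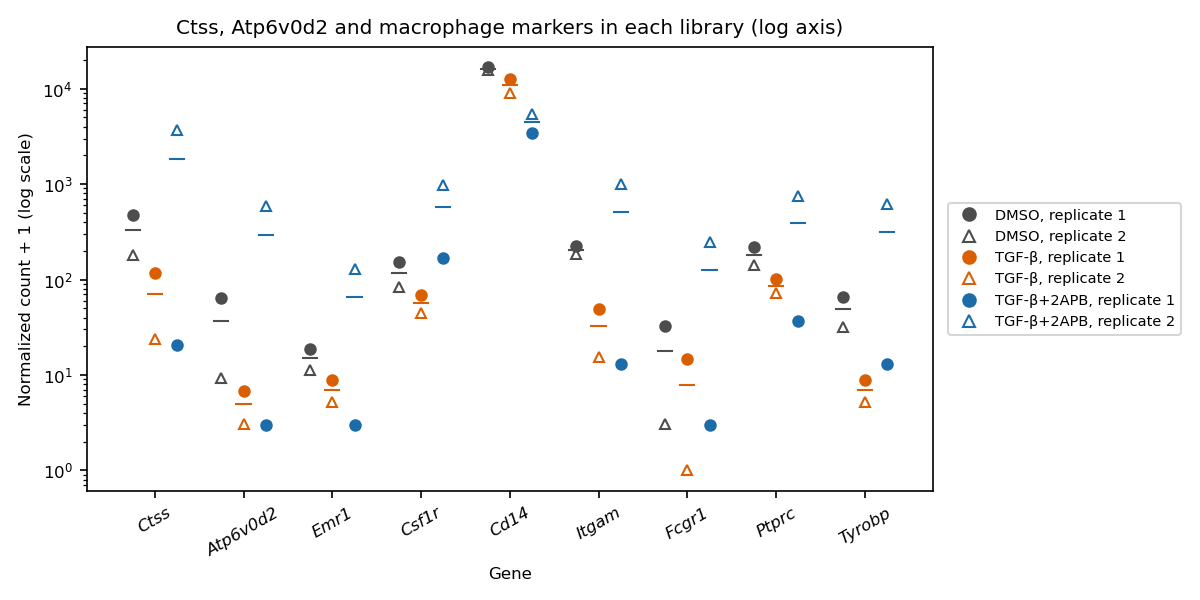
Normalized count + 1 (vertical log axis) of Ctss, Atp6v0d2 and the 7 macrophage markers in each library, with filled circles for replicate 1, open triangles for replicate 2 and a short line at the mean of the 2 libraries of a group. The open blue triangle, TGF-β+2APB replicate 2, is the highest point for Ctss (3662), Atp6v0d2 (582) and every marker except Cd14.

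In the V1 sector the catalytic core was lower after TGF-β. Atp6v1b2 encodes the B subunit of this line (chr8:69088646-69113711, plus strand), since its paralog Atp6v1b1, known from kidney, had 10 and 12 raw counts in DMSO and 0 in the other 4 libraries. The normalized counts of Atp6v1b2 were 27570.1 and 26486 in DMSO, 22641 and 18709.7 in TGF-β and 20602 and 21624 in TGF-β+2APB. Both DMSO libraries were above the treated ones. It was lower, with a log2 fold change of -0.39 ± 0.1 in TGF-β (edgeR adjusted p = 0.031) and -0.36 ± 0.1 in TGF-β+2APB (adjusted p = 0.0324). Atp6v1a, the catalytic A subunit whose promoter stretch is printed above, was lower, with log2 fold changes of -0.45 ± 0.081 (adjusted p = 0.00781) and -0.30 ± 0.081 (adjusted p = 0.0232).

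Atp6v1h, the regulatory H subunit (chr1:5070018-5162529, plus strand), had 9819.7 and 9712 in DMSO, 6204 and 5854 in TGF-β and 6365 and 6258 in TGF-β+2APB. DMSO was separated from both treated groups, which lay close together. Fitted values were log2 -0.70 ± 0.07 in TGF-β (edgeR adjusted p = 0.00101) and -0.63 ± 0.07 in TGF-β+2APB (adjusted p = 0.000888), and 0.066 ± 0.07 between them (adjusted p = 0.555). Atp6v1d, a rotor subunit, was lower in both treated groups than in DMSO, with log2 fold changes of -0.46 ± 0.074 and -0.36 ± 0.074 (adjusted p = 0.00528 and 0.00927). Atp6v1f, also of the rotor, passed only against DMSO in TGF-β (log2 -0.45 ± 0.14, adjusted p = 0.0461).

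Of the E and G subunit genes of the peripheral stalk, Atp6v1e1, Atp6v1g1 and Atp6v1g2, none was called lower. Over all genes, 19.7% were lower in TGF-β, 27.2% in TGF-β+2APB and 10.9% in the direct comparison. Atp6v1g1, a G subunit of the stalk (chr4:63544772-63550750, plus strand), had 4837 and 4504 in DMSO, 6167 and 5860.3 in TGF-β and 9618 and 8600.3 in TGF-β+2APB. Its 3 groups rose in steps without overlap. Its change was log2 0.36 ± 0.089 in TGF-β (edgeR adjusted p = 0.0222), 0.96 ± 0.09 in TGF-β+2APB (adjusted p = 0.00047) and 0.60 ± 0.089 in the direct comparison (adjusted p = 0.0119). Its neuronal paralog Atp6v1g2 had 74.7 and 105.4 in DMSO, 97.4 and 124.5 in TGF-β and 73.3 and 73.0 in TGF-β+2APB. Atp6v1g2 made up at most 1.71% of the G subunit level per kilobase and was not called.

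Atp6v1e1, the stalk's E subunit and the V1 gene with the highest level per kilobase (9630 normalized counts per kb), had 13073 and 12661 in DMSO, 11762 and 10143 in TGF-β and 14364 and 13811 in TGF-β+2APB. It was called only in the direct comparison, at a log2 fold change of 0.36 ± 0.092 (edgeR adjusted p = 0.0483). Against DMSO the values were -0.23 ± 0.092 in TGF-β and 0.13 ± 0.092 in TGF-β+2APB, neither of which passed. Atp6v1c1, the C subunit that joins V1 to V0, had 6049.8 and 6113 in DMSO, 6424 and 6508 in TGF-β and 6519.5 and 6091 in TGF-β+2APB. It was called in no comparison, with log2 fold changes of 0.088 ± 0.071, 0.052 ± 0.071 and -0.036 ± 0.071. Its paralog Atp6v1c2 had 2 and 2 raw counts in DMSO, 6 and 0 in TGF-β and 4 and 2 in TGF-β+2APB.

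In the V0 sector the 4 genes of the a subunit, which forms the proton half-channels and directs the pump to its membrane, took different directions. Atp6v0a1, the widely expressed form (chr11:101009452-101063719, plus strand), had 24085 and 23038 in DMSO, 18877 and 15998 in TGF-β and 9121 and 11279.6 in TGF-β+2APB. Its 3 groups fell in steps without overlap. The log2 fold change was -0.43 ± 0.13 in TGF-β (edgeR adjusted p = 0.0445), -1.21 ± 0.13 in TGF-β+2APB (adjusted p = 0.000863) and -0.77 ± 0.13 in the direct comparison (adjusted p = 0.0169). The first of these calls was lost in 8 of the 15 alternative settings.

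Atp6v0a2, a form known from the Golgi (chr5:124628576-124724455, plus strand), had 6716 and 6657 in DMSO, 8386 and 7798 in TGF-β and 7137 and 7178 in TGF-β+2APB. It passed in TGF-β only (log2 0.28 ± 0.072, edgeR adjusted p = 0.0276), and its value in TGF-β+2APB was 0.10 ± 0.072 (adjusted p = 0.299). Atp6v0a4, known from acid-secreting kidney cells (chr6:38048483-38124586, minus strand), had 27.5 and 12.4 in DMSO, 119 and 108 in TGF-β and 182 and 174 in TGF-β+2APB. All treated libraries were above both DMSO libraries, which differed by more than 2-fold from each other. Fitted values were log2 2.50 ± 0.4 in TGF-β (adjusted p = 0.0052) and 3.14 ± 0.41 in TGF-β+2APB (adjusted p = 0.00162). Of its exonic bases, 5.21% are shared on the same strand with D630045J12Rik, an entry of the count table. That gene had 1762 and 1756 raw counts in DMSO, 2174 and 1840 in TGF-β and 2406 and 2502 in TGF-β+2APB. The part of such shared reads in the Atp6v0a4 counts was not tested.

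Tcirg1, the remaining a subunit gene, does not carry the family symbol and is listed here for comparison. Its normalized counts were 6718 and 6867 in DMSO, 10151 and 10199.5 in TGF-β and 7757 and 7412 in TGF-β+2APB. It was higher in TGF-β than in DMSO (log2 0.58 ± 0.068, edgeR adjusted p = 0.00168) and lower in TGF-β+2APB than in TGF-β (log2 -0.42 ± 0.068, adjusted p = 0.0147). Per kilobase of the longest coding transcript, Atp6v0a1 made up 63.4% and 62.1% of the summed a subunit level in DMSO, 48.8% and 45.2% in TGF-β and 36.6% and 42.3% in TGF-β+2APB. Tcirg1 made up 23.3% and 24.4%, then 34.6% and 38%, then 41% and 36.7%. Atp6v0a2 went from 13.2% and 13.5% in DMSO to 21.5% and 20.2% in TGF-β+2APB, while Atp6v0a4 remained below 1% in every library. With the shortest coding transcripts the Atp6v0a1 shares were 70.2% and 69% in DMSO, 56.4% and 52.7% in TGF-β and 44% and 50% in TGF-β+2APB, and those of Tcirg1 19.8% and 20.8%, 30.6% and 34%, and 37.8% and 33.2%.

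Of the other V0 genes, Atp6v0d1 and Atp6v0e were called. Atp6v0d1, the d subunit of the central stalk, had 8733 and 8179 in DMSO, 6488 and 5055 in TGF-β and 6478 and 6534 in TGF-β+2APB. It was lower in TGF-β (log2 -0.55 ± 0.13, edgeR adjusted p = 0.0188), and in TGF-β+2APB its value of -0.38 ± 0.13 just missed the threshold (adjusted p = 0.0512). Atp6v0d2 took 5.41% of the d subunit level per kilobase in TGF-β+2APB replicate 2 and at most 0.46% in the other libraries. Atp6v0b, a proteolipid of the proton ring and the V0 gene with the highest level per kilobase of the longest coding transcript (4800 normalized counts per kb), had 5211 and 4498 in DMSO, 4811 and 3997 in TGF-β and 5033 and 5244 in TGF-β+2APB. Its treated libraries overlapped those of DMSO, both TGF-β+2APB libraries were above both TGF-β libraries, and it was not called, with log2 fold changes of -0.14 ± 0.12, 0.082 ± 0.12 and 0.22 ± 0.12. The small membrane subunit gene Atp6v0e was lower in both treated groups than in DMSO (log2 -0.39 ± 0.096 and -0.34 ± 0.096, adjusted p = 0.0232 and 0.0273), and its paralog Atp6v0e2 was not called. Per kilobase of the shortest coding transcript, 442 bases, Atp6v0e would stand highest in the sector, at 22800 in DMSO.

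The accessory genes were called in opposite directions in TGF-β+2APB. Atp6ap1, an assembly subunit of the V0 sector (chrX:74297097-74304721, plus strand), had 15588 and 15156 in DMSO, 20839 and 17404 in TGF-β and 19384 and 20057 in TGF-β+2APB. It was higher in TGF-β+2APB than in DMSO (log2 0.36 ± 0.1, edgeR adjusted p = 0.0268), and in TGF-β a value of 0.32 ± 0.1 missed the threshold (adjusted p = 0.0507). Atp6ap2, the prorenin receptor (chrX:12587801-12617049, plus strand), had 7907 and 7721 in DMSO, 5406 and 5715 in TGF-β and 6527 and 6327 in TGF-β+2APB. It was lower, with a log2 fold change of -0.49 ± 0.071 in TGF-β (adjusted p = 0.00357) and -0.28 ± 0.071 in TGF-β+2APB (adjusted p = 0.0194).

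Of the membrane glycoproteins, Lamp1 (chr8:13159161-13175338, plus strand) had 60512 and 57173 in DMSO, 53462 and 43933 in TGF-β and 43720.1 and 47499.7 in TGF-β+2APB. It was lower in TGF-β+2APB than in DMSO (log2 -0.37 ± 0.11, edgeR adjusted p = 0.0352), while -0.27 ± 0.11 in TGF-β did not pass (adjusted p = 0.1). Lamp2, which also serves chaperone-mediated autophagy, had 31523 and 30674 in DMSO, 23246 and 28146 in TGF-β and 29109 and 28612 in TGF-β+2APB. It was not called, with log2 fold changes of -0.28 ± 0.1 and -0.11 ± 0.1 against DMSO. Whether counting used the strand is not given, so reads of overlapping genes on opposite strands may be mixed. Grtp1 shares 249 exonic bases with Lamp1, 9.31% of the exonic bases of Lamp1, and had 1608 raw counts in DMSO replicate 1 and 138 in TGF-β+2APB replicate 1, a number small beside the Lamp1 counts. Larger overlaps with opposite-strand genes of the table were those of Lamtor1 with Lrrc51 (18.7% of its exonic bases), Ctsb with Fdft1 (12.8%) and Ctsa with Pltp (10.5%).

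Among the Ragulator genes, Lamtor3 (chr3:137918506-137928900, plus strand) was the furthest from DMSO. It had 3727 and 3504 in DMSO, 2242 and 2218 in TGF-β and 2413 and 2154 in TGF-β+2APB. The DMSO libraries were separated from the treated ones, which overlapped. Lamtor3 was lower, with a log2 fold change of -0.70 ± 0.084 in TGF-β (edgeR adjusted p = 0.00185) and -0.66 ± 0.084 in TGF-β+2APB (adjusted p = 0.00145). Lamtor2, its partner in the complex, had 3070.1 and 3171 in DMSO, 2523 and 2204 in TGF-β and 2388 and 2583 in TGF-β+2APB. It was lower, with log2 fold changes of -0.40 ± 0.093 (adjusted p = 0.0185) and -0.33 ± 0.093 (adjusted p = 0.0284) in the same order. Lamtor4 was lower in TGF-β (log2 -0.42 ± 0.11, adjusted p = 0.0282) and not called in TGF-β+2APB (-0.28 ± 0.11, adjusted p = 0.0782). Lamtor1, the membrane anchor and the Ragulator gene with the highest level per kilobase (7070 normalized counts per kb), had 8921 and 8524 in DMSO, 9108 and 7157 in TGF-β and 6573 and 7162 in TGF-β+2APB. Neither it nor Lamtor5 was called, and no Lamtor gene passed in the direct comparison.

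The 5 genes with TCACGTGA had a median log2 fold change of -0.45 in TGF-β against DMSO, where 4 were called lower and none higher. The 24 genes whose windows lacked it had a median of -0.19, with 3 higher and 8 lower. In TGF-β+2APB against DMSO the medians were -0.34 (3 of 5 lower) and -0.074 (5 higher and 6 lower of 24). Over all genes, 19.7% were lower and 21.8% higher in TGF-β, and 27.2% and 25.6% in TGF-β+2APB. In the direct comparison none of the 5 was called, and of the 24, 2 were higher and 3 lower. None of the 4 lower calls in TGF-β was among the 8 that held in each alternative setting. The 5 genes included Ctsd, which was not called. These counts were not tested against each other.

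Lists of other lysosomal genes were set beside the 40. Of 120 such genes tested, 14 were higher and 41 lower in TGF-β than in DMSO (45.8% called), 22 higher and 46 lower in TGF-β+2APB (56.7%), and 11 higher and 9 lower in the direct comparison (16.7%). The share called in each was near the background given above, and the split between directions leaned to lower in the comparisons with DMSO, with medians of -0.19 and -0.18. Among 43 lysosomal hydrolases and their activators, 6 were higher and 19 lower in TGF-β. Sgsh, which removes sulfate from heparan sulfate, had 4346 and 4002 in DMSO, 1112 and 627 in TGF-β and 71.3 and 203 in TGF-β+2APB. It was lower in each comparison, with log2 fold changes of -2.26 ± 0.46 in TGF-β, -4.92 ± 0.54 in TGF-β+2APB and -2.66 ± 0.5 in the direct comparison (edgeR adjusted p = 0.0121, 0.000827 and 0.0212). Galns, another sulfatase, was lower, with log2 fold changes of -1.35 ± 0.13 in TGF-β (adjusted p = 0.000882) and -1.73 ± 0.13 in TGF-β+2APB (adjusted p = 0.000235). Galc, the galactosylceramidase, rose by log2 0.97 ± 0.075 in TGF-β and 1.57 ± 0.076 in TGF-β+2APB (adjusted p = 0.000405 and 6.02e-05).

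Of 27 lysosomal membrane proteins and channels, 1 was higher and 6 lower in TGF-β, and 6 higher and 12 lower in TGF-β+2APB. Tpcn1, a cation channel of endosomes and lysosomes, had 9118 and 9194 in DMSO, 7675 and 6367 in TGF-β and 3306 and 4256 in TGF-β+2APB. It was lower in TGF-β+2APB than in DMSO (log2 -1.28 ± 0.15, edgeR adjusted p = 0.00112) and than in TGF-β (log2 -0.89 ± 0.15, adjusted p = 0.0165). Of 14 genes that deliver enzymes to lysosomes, none was higher and 6 were lower in TGF-β, against 1 and 7 in TGF-β+2APB. Sort1, the sorting receptor sortilin, was lower against DMSO, with log2 fold changes of -1.60 ± 0.16 and -1.59 ± 0.16 (adjusted p = 0.00104 and 0.000655).

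Of 7 genes for the TFE transcription factors and their regulators, 1 was lower in TGF-β, and in TGF-β+2APB 1 was higher and 3 lower. Tfeb had 2119 and 2116 in DMSO, 1872 and 1359 in TGF-β and 1079 and 1154 in TGF-β+2APB. It was lower in TGF-β+2APB than in DMSO (log2 -0.92 ± 0.16, edgeR adjusted p = 0.00456), and in TGF-β its value of -0.39 ± 0.16 did not pass (adjusted p = 0.0974). Mitf had 283 and 289 in DMSO, 144 and 183 in TGF-β and 49.5 and 146 in TGF-β+2APB. It was called lower only in TGF-β+2APB against DMSO (log2 -1.55 ± 0.5, adjusted p = 0.043). Tfe3, the most abundant of these factors, was not called. Its log2 fold changes against DMSO were -0.10 ± 0.096 and -0.085 ± 0.096 (adjusted p = 0.449 and 0.494). Flcn, a regulator of the Rag GTPases and of TFE factors, was lower against DMSO, with log2 fold changes of -0.92 ± 0.12 and -0.71 ± 0.12 (adjusted p = 0.0022 and 0.00373). Of 14 Rag GTPase and mTORC1 genes, 3 were higher and 5 lower in TGF-β, and 4 higher and 4 lower in TGF-β+2APB. Rragd had 129.7 and 126 in DMSO, 23.4 and 31.1 in TGF-β and 13.9 and 19.7 in TGF-β+2APB. It was lower, with log2 fold changes of -2.23 ± 0.33 in TGF-β and -2.92 ± 0.34 in TGF-β+2APB (adjusted p = 0.00379 and 0.00107). Rragb was lower, with log2 fold changes of -1.40 ± 0.17 and -2.12 ± 0.17 (adjusted p = 0.00174 and 0.00028).

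Of the 10 genes for V-ATPase assembly and binding, Tcirg1 included, 2 were higher and 4 lower in TGF-β, and 1 higher and 3 lower in TGF-β+2APB. Rogdi, a factor that binds the pump, was lower, with log2 fold changes of -0.72 ± 0.15 in TGF-β and -1.30 ± 0.15 in TGF-β+2APB (edgeR adjusted p = 0.0117 and 0.000974). The cathepsin inhibitors were the smallest list, with 5 of 10 tested. In TGF-β 2 were higher and none lower, and in TGF-β+2APB 3 were higher and 1 lower. Ctla2a, which resembles the inhibitory propeptide of cysteine cathepsins, had 269 and 273 in DMSO, 3902 and 4478 in TGF-β and 7965 and 6469 in TGF-β+2APB. It rose by log2 3.95 ± 0.14 in TGF-β, 4.73 ± 0.15 in TGF-β+2APB and 0.79 ± 0.12 in the direct comparison (adjusted p = 5.13e-05, 2.05e-05 and 0.0139). Ctla2b, its close paralog, rose by 3.18 ± 0.14 and 3.61 ± 0.14 against DMSO (adjusted p = 8.52e-05 and 3.8e-05), and reads could be shared between these 2 genes.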

How the data were processed

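RNA from NMuMG cells was selected with oligo-dT and sequenced as 50-base single-end reads in 6 libraries, 2 for each of DMSO, TGF-β and TGF-β+2APB. The authors checked reads with FastQC 0.11.2, aligned them with TopHat2 2.0.13 and deposited raw read counts per gene symbol from featureCounts. The submitters' processing notes name mm10, while the methods name a human build. The annotation, the strand setting and the handling of reads with several matches are not given in the sources used here, and all deposited counts are even numbers.

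Genes averaging 20 or more normalized counts over the libraries were tested with edgeR 4.0.16 (TMM scaling, glmQLFit and glmQLFTest, R 4.3.3) in 1 model of the 3 groups, two-sided, with Benjamini-Hochberg adjustment over 13353 genes. A gene was called at an adjusted p of 0.05 or less. Standard errors were obtained from each log2 fold change and its F statistic. Levels per kilobase used the longest coding transcript of the GENCODE vM21 basic set, with the shortest as an alternative. Promoter windows came from RefSeq and were searched for CACGTG and TCACGTGA.

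The members, gene lists and tests were chosen with earlier results of these data known. All 40 members are accounted for by role. Values in every library are given for members called with an absolute log2 fold change of at least 1, the highest per kilobase in each role, the 2 with the smallest adjusted p in each role, and the paralogs of the a, B, C, d, E and G subunits. Of the other lists at most 3 called genes each are named. DESeq2 1.42.0, other scalings, no filter, halved counts, a replicate term, fits of 4 libraries and fits without 1 library were the alternatives. In counts simulated for TGF-β against DMSO over 13353 genes, 69 of 100 genes changed by 1 on the log2 scale and 100 of 100 changed by 2 were called, as was 1 of 13153 unchanged genes. Changed genes were drawn from those with a mean count of 100 or more, and all genes had the same dispersion, 0.03. These rates therefore do not cover members with low counts or a wide spread, such as Ctsk, Ctss and Atp6v0d2. With 71840570 to 79473182 counts per library, the precision of all but the lowest genes was set by the spread between libraries. That spread was estimated in 1 model of the 3 groups, with 2 libraries each.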

Additional observations from a re-analysis of the deposited data

How the results depend on the processing

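Of 1800 values of single members over the comparisons and alternatives, 1600 kept their side of the threshold, 123 fell short of it, 76 came to pass it and 1 reversed with a call, Ctss in TGF-β+2APB against DMSO without TGF-β+2APB replicate 2 (log2 fold change -4.01, against 3.48 without TGF-β+2APB replicate 1). Among the 1600, 35 values of 18 genes changed sign while called in neither fit. Without 1 library at a time, member calls ranged from 8 to 30 in TGF-β against DMSO, 10 to 27 in TGF-β+2APB against DMSO and 4 to 16 in the direct comparison, and calls of the other lysosomal genes from 26 to 75, 43 to 91 and 2 to 50. All 3 lowest member counts occurred without DMSO replicate 1, and the latter 2 of them also without DMSO replicate 2. A fit that leaves a group with 1 library assumes that this library varies like the other groups. The number called over all genes also changed with the library left out, so these ranges are no trait of the members. In the direct comparison DESeq2 without a prior called 11 members, and the fit of only the 4 libraries compared called 4. Of the other lysosomal genes, the direct comparison called 35 with DESeq2 without and with a prior, 9 with the replicate block and 3 with only the 4 libraries compared. Over all genes, the direct comparison called 2334 genes, against 3646 and 3597 with DESeq2 without and with a prior, 1342 with the replicate block and 878 with only the 4 libraries compared. The cause was not tested.

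The groups share replicate numbers in the labels, but deviations of same-numbered libraries correlated at 0.148, -0.458 and -0.255, with only 2 pairs, so the numbers were not taken to pair the libraries. With the replicate block 18, 18 and 7 members were called in the 3 comparisons. With the TGF-β+2APB numbers exchanged, chosen after seeing the data, these were 25, 24 and 6. No scaling moved the median of all genes by over 0.1 on the log2 scale, the farthest median being -0.0671 with library size scaling. For Atp6v0d2, Cts8, Ctsk and Atp6v0a4 in DMSO, low counts limit the precision. Levels per kilobase were also computed with the shortest coding transcripts, chosen after seeing the data, which changed the order of Ctsl and Ctsd and the highest V0 gene. In DMSO they also put Atp6v1f above Atp6v1e1, at 10300 against 9810 normalized counts per kb. Atp6v1f stayed below Atp6v1e1 in TGF-β (7560 against 8350) and in TGF-β+2APB (8930 against 10700).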

Other observations

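Among the symbols below the count minimum, Atp6v1b1 had 10 and 12 raw counts in the DMSO libraries and 0 in the other 4. Ctsg had 2 raw counts in TGF-β+2APB replicate 2 and 0 elsewhere, and Lamp3 had 4 in DMSO replicate 2 and in TGF-β replicate 2 and 0 elsewhere. No fold change is given for these genes.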
